A study of Mus musculus with 19 samples.

Results

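The nuclear genome carries most of the subunits of the mitochondrial respiratory chain, and their mRNAs were followed here from the mature oocyte to the 2cell embryo, in libraries labelled by a maternal deletion of the RNA-binding protein CPEB3. The genes were picked by a rule on names, as protein-coding entries whose symbol begins with Nduf followed by a, b, c, s or v and a digit, Uqcr, Cox followed by a digit from 4 to 8, or Atp5, or is Sdha, Sdhb, Sdhc or Sdhd. That rule found 83 of the 25891 genes listed: 37 of complex I, 4 of complex II, 8 of complex III, 17 of complex IV and 17 of complex V.

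The respiratory chain passes electrons from NADH, through complex I, and from succinate, through complex II, to complexes III and IV and so to oxygen, and complex V (ATP synthase) uses the proton gradient this makes to produce ATP. Its subunits come from both genomes: a few core subunits are encoded in mitochondrial DNA, and the rest are made in the cytosol from nuclear mRNAs and imported. The mature oocyte does not transcribe its genome and lives on stored mRNAs, whose translation and decay depend on proteins such as CPEB3 that bind their 3′ untranslated regions (3′UTRs), until the mouse genome is activated at the 2cell stage.

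RNA-seq was carried out on MII oocytes (mature oocytes arrested in the second meiotic division) and on 2cell embryos of mice in which *Cpeb3* was deleted in growing oocytes only, by a Cre recombinase under the oocyte promoter ZP3 acting on LoxP-flanked alleles. The CPEB3-/- genotype is CPEB3 LoxP/LoxP with ZP3 Cre+/-, and the libraries set against it are labelled Het (CPEB3+/- here), a group whose alleles the labels do not spell out further, and for which the study's methods do not settle which control genotype these libraries had. There were 5 CPEB3+/- and 5 CPEB3-/- libraries of MII oocytes and 5 CPEB3+/- and 4 CPEB3-/- libraries of 2cell embryos, each from a pool of 5 cells. The females, on a BL6 background and 6 to 10 weeks old, are taken to have received 5 IU PMSG and 48 h later 5 IU hCG in every group, as the methods describe for oocytes matured in vivo. The 2cell embryos came from matings with WT males and were collected 37 h after hCG, so that the genotype of an embryo library is that of its mother. The methods also describe oocytes matured and zygotes cultured in M16, and do not say whether these gave the sequenced libraries. The sources used here do not say which animals each library came from, so the p-values below measure the spread between libraries. The libraries were made from captured and amplified mRNA. For candidate mRNAs the study reports poly(A) tails (runs of A at the end of an mRNA) of differing length between genotypes in MII oocytes. Whether tail length changed what was captured here was not tested.

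Depth, estimated from the smallest steps between values, was 17.3 to 23.6 M fragments (M, mega) per library with a median of 19.6 M. It is approximate, since 42.0% of low values lay within 0.05 of a whole fragment against 10% by chance. *Cpeb3* RNA was not lower in the libraries labelled CPEB3-/-: it was 0.131 to 0.215 FPKM (fragments scaled to transcript length and to the depth of the library) in CPEB3-/- and 0.0450 to 0.101 FPKM in CPEB3+/- oocytes, and 0.0362 to 0.0633 FPKM against 0.0204 to 0.0566 FPKM in embryos, so CPEB3-/- and CPEB3+/- stand for the labels throughout. The stages matched their markers. The summed level of 8 oocyte genes was 807 to 1128 FPKM in MII and 98.8 to 159 FPKM in 2cell libraries, and that of 5 genes of the 2cell stage was 1.12 to 14.9 FPKM in MII and 258 to 617 FPKM in 2cell libraries, with the higher MII values (7.69 to 14.9 FPKM) in CPEB3-/-. In embryos the genes of the 2cell stage summed to 447 ± 123 FPKM in CPEB3+/- and 283 ± 24.8 FPKM in CPEB3-/-, and the oocyte genes to 117 ± 24.1 and 144 ± 12.1 FPKM, and the part of these differences in the genotype comparisons below was not tested. Of the other cell types, 9 of 12 cumulus and granulosa cell markers were listed and summed to at most 0.899 FPKM in any library, and 3 of 5 sperm markers to at most 1.31 FPKM. The 2 listed blood markers, both alpha globins, were at 0.0512 to 0.428 FPKM in MII and 46.2 to 146 FPKM in 2cell libraries of both genotypes, and their part in the stage differences below was not tested.

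FPKM is a level per length, so it can be set side by side between genes, though only roughly: the length used for each gene is not given in the sources used here, and the joined exons of a gene were 1 to 11.8 times (median 1.46) as long as the transcript measured here in 82 members. All 83 genes together summed to 411 ± 51.9 FPKM (SD, n = 5) in CPEB3+/- oocytes, 511 ± 87.4 FPKM (n = 5) in CPEB3-/- oocytes, 890 ± 76.4 FPKM (n = 5) in CPEB3+/- embryos and 908 ± 80.9 FPKM (n = 4) in CPEB3-/- embryos. A pair of complex IV genes held 44.2 ± 0.66%, 47.3 ± 2.50%, 45.8 ± 2.56% and 50.8 ± 2.17% of those sums: *Cox8a*, a small subunit of cytochrome c oxidase, and *Cox6b2*, known as the testis form of another. Near-identical copies elsewhere in the genome (at least 90% identity over at least 50% of the transcript) were annotated for 15 of the 82 genes with a unique annotation, with a median level of 1.55 FPKM beside 1.92 FPKM for the 67 without, and reads of a gene and its copy may not have been told apart. Complex II, succinate dehydrogenase, had the lowest sum of the complexes, with 5.66 ± 0.43 FPKM over its 4 subunits in CPEB3+/- oocytes and 1.54 ± 0.073 FPKM in CPEB3+/- embryos. It also has the fewest genes, and the median of its gene means in CPEB3+/- oocytes was 1.09 FPKM, above the 0.514 FPKM of complex I.

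*Cox8a* (ENSMUSG00000035885.5, chr19:7215158-7217616 on GRCm38, minus strand) was at 108, 112, 114, 142 and 149 FPKM in the CPEB3+/- and 122, 165, 197, 201 and 247 FPKM in the CPEB3-/- oocyte libraries. In embryos it was at 237, 246, 246, 254 and 267 FPKM in CPEB3+/- and 317, 319, 336 and 397 FPKM in CPEB3-/-. The genotypes overlapped in oocytes and not in embryos, and the log2 difference of the embryos, 0.39 ± 0.11 (SE, adjusted p = 0.0331, limma), was under the 1.5-fold limit set for a call.

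Of the paired isoforms of complex IV, *Cox6b2* stood above its widely expressed counterpart in every library, and the other tissue-restricted forms stood below theirs. *Cox6b2* was at 56.8 ± 4.63 FPKM in CPEB3+/- oocytes and 158 ± 34.1 FPKM in CPEB3+/- embryos, while *Cox6b1* was at 1.20 and 5.51 FPKM. *Cox6b2* therefore made up 97.9 ± 0.34%, 96.9 ± 0.92%, 96.5 ± 0.96% and 94.9 ± 0.71% of the pair in CPEB3+/- and CPEB3-/- oocytes and CPEB3+/- and CPEB3-/- embryos. The lung form *Cox4i2* held 0.322 to 0.744% of its pair with *Cox4i1* on average in the 4 groups, and the heart and muscle form *Cox6a2* 7.77 to 12.4% of its pair with *Cox6a1*. The testis form *Cox7b2* was listed at 0 in every oocyte library, and *Cox8c* held at most 0.308% of its pair with *Cox8a* in the group means.

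Several pairs changed their balance between the stages. *Cox7a2l*, which encodes a relative of *Cox7a2* that joins complexes III and IV into supercomplexes, held 39.3 ± 1.88% of the pair in CPEB3+/- and 36.8 ± 1.9% in CPEB3-/- oocytes, and 4.07 ± 1.32% and 3.39 ± 0.56% in the embryos. The stages did not overlap, since the lowest oocyte library was at 34.1% and the highest embryo library at 5.98%. *Cox7a1*, the heart and muscle counterpart, was listed at 0 in 8 of 10 oocyte libraries and at 0.0218 and 0.0226 FPKM in the others, and at 0.846 to 3.03 FPKM in embryos. Against a floor of 3 fragments per library it was at least 5.06-fold higher in CPEB3+/- and at least 9.27-fold higher in CPEB3-/- embryos than in the oocytes of the same genotype. Among the 3 genes for the same c-ring subunit of ATP synthase, *Atp5g1* went from 27.3 ± 9.59% of its pair with *Atp5g3* in CPEB3+/- oocytes to 47.0 ± 4.67% in CPEB3+/- embryos, and *Atp5g2* stayed under 1% of its pair with *Atp5g3* in every group mean. A copy with 100% identity to *Atp5g2* over part of its transcript, *Gm10175*, was listed at up to 10.9 FPKM in a group mean, so reads of *Atp5g2* may have been counted there.

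Subunits of 1 enzyme differed widely in level. In complex I, mean levels over the 19 libraries went from 0.0227 FPKM for *Ndufa4l2* to 18.0 FPKM for *Ndufa2*. Among core subunits, which carry the flavin and the iron-sulfur clusters, *Ndufs1* was at 0.12, *Ndufs7* at 0.218, *Ndufv2* at 0.335 and *Ndufv1* at 0.40 FPKM. *Ndufs3* at 1.55 FPKM and *Ndufs8* at 4.07 FPKM were higher. Their order turned between the stages, with 2.26 and 0.514 FPKM in CPEB3+/- oocytes and 1.13 and 8.59 FPKM in CPEB3+/- embryos. The 4 genes of complex I with the highest mean over both stages, *Ndufa2*, *Ndufa4*, *Ndufb11* and *Ndufb6* (11.7 to 18.0 FPKM), encode accessory subunits or, for *Ndufa4*, a protein now placed in complex IV. In CPEB3+/- oocytes *Ndufa2* was at 2.80 FPKM, under *Ndufa4* at 10.4 FPKM, and in CPEB3+/- embryos it was at 36.3 FPKM.

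In the catalytic head of ATP synthase the beta subunit gene *Atp5b* was at 28.5 FPKM, the alpha subunit gene *Atp5a1* at 6.69, the epsilon gene *Atp5e* at 6.43, the gamma gene *Atp5c1* at 1.12 and the delta gene *Atp5d* at 0.482 FPKM. In the enzyme, alpha and beta alternate in equal number. Of the core proteins of complex III, *Uqcrc2* was at 5.83 FPKM and *Uqcrc1* at 0.135 FPKM over all libraries. By stage they were at 11.6 and 0.0286 FPKM in CPEB3+/- oocytes and 0.618 and 0.240 FPKM in CPEB3+/- embryos. The genes of this and the preceding paragraph outside the naming rule were chosen after their values were seen.

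**Figure D1:**
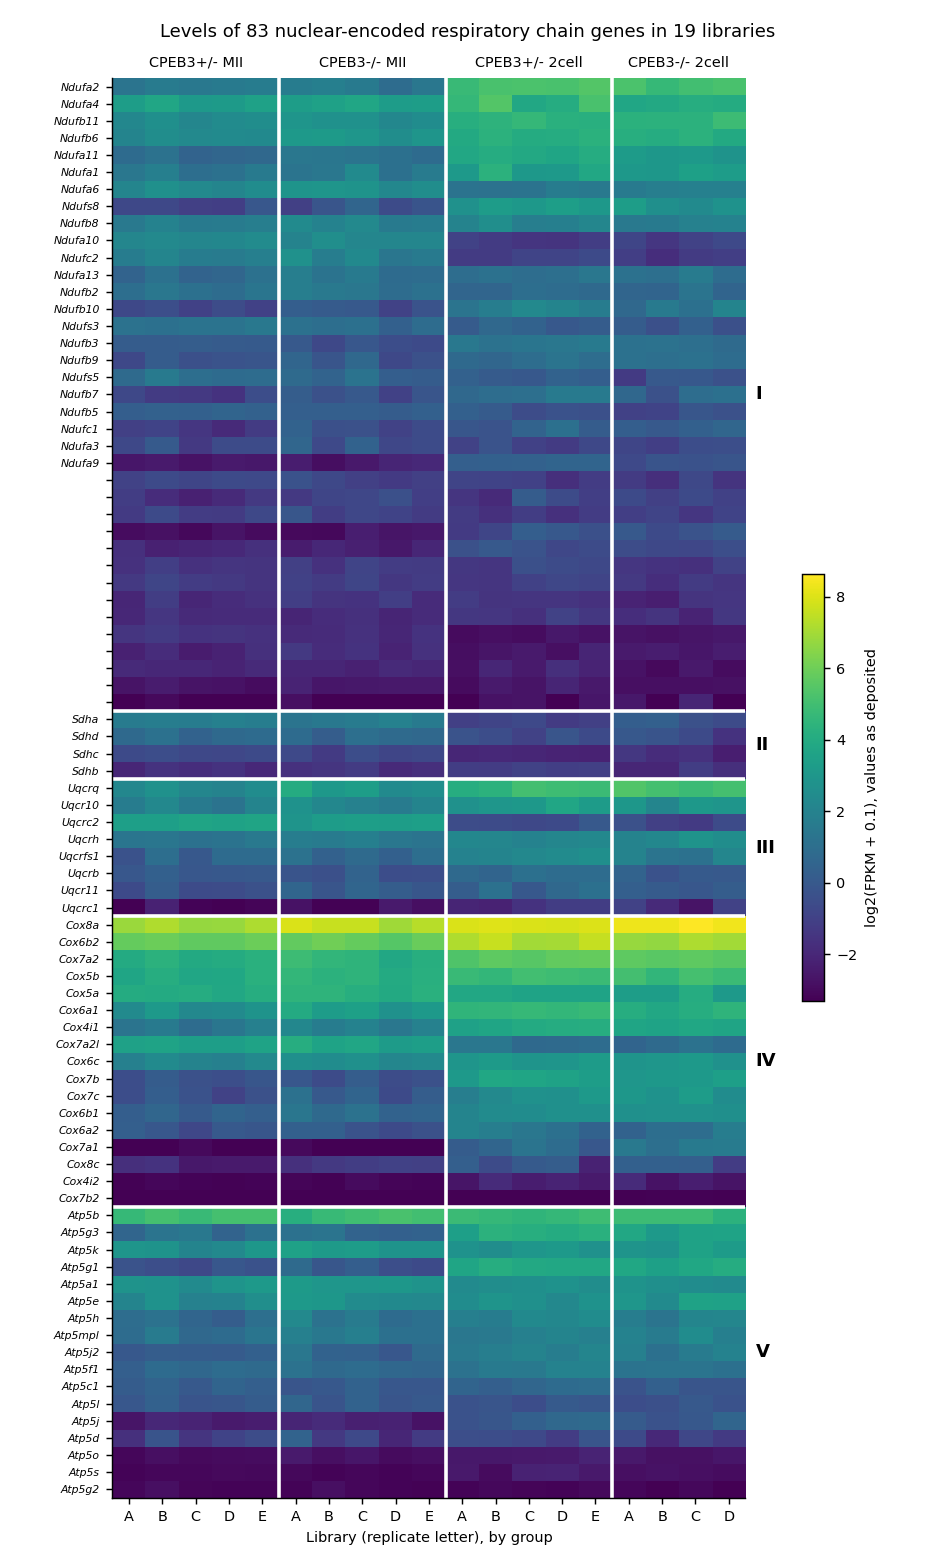
Heat map of log2(FPKM + 0.1), values as deposited, for the 83 genes (lines, by complex and by mean level) in the 19 libraries (columns, by group and replicate letter), with complex I lines named from a mean of 0.5 FPKM upwards. *Cox8a* and *Cox6b2* are the brightest lines in every library, while *Cox7b2*, *Atp5g2*, *Atp5o* and *Atp5s* are dark in all of them.

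**Figure D2:**
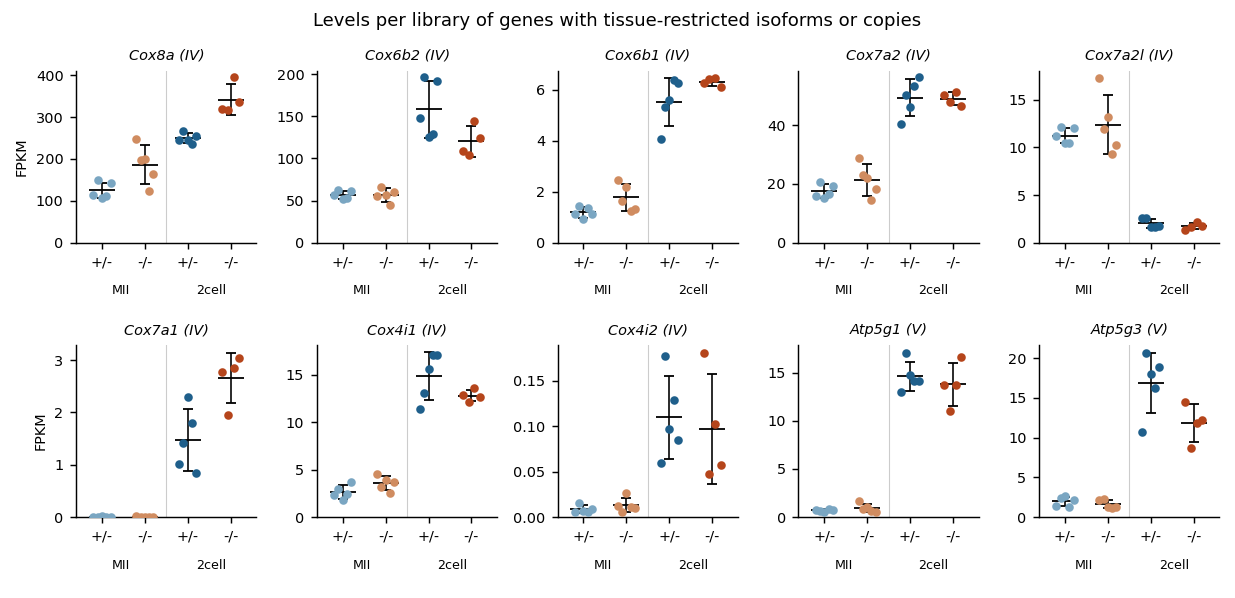
FPKM in each library for isoform genes, 1 panel per gene, with points for libraries, bars for group means and error bars for the SD (n = 5, 5, 5 and 4). The oocyte and embryo libraries of *Cox7a2l* and of *Cox7a1* do not overlap, in opposite directions.

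The members' mRNAs were short. The median 3′UTR was 168.5 bases for the 82 genes with a unique annotation and 859 bases for all protein-coding genes tested, and the median transcript was 787 against 2641 bases. For each gene 1 transcript of GENCODE vM21 was used, chosen first by its label as principal. Longer 3′UTRs of other transcripts were not searched. CPEB proteins bind U-rich elements in the 3′UTR. The U-rich letters named in the study's methods (TTTTAT or TTTTAAAT or TTTTAAGT or TTTTACT or TTTTCAT, searched on the transcript strand, each counted where found) occurred in 17 of 82 members (20.7%) and in 61.9% of all protein-coding genes tested, or 0.965 against 1.72 times per kilobase of 3′UTR. Complex II differed from the other complexes in length, with a median 3′UTR of 780.5 bases, and 3 of its 4 subunits held such letters. A sample of the sites is shown for the complex II subunits and for the complex I genes *Ndufc1* and *Ndufc2*, whose levels are described below, 5′ to 3′ on the transcript strand with the U-rich letters in capitals.
*Sdha* 3′UTR, chr13:74322830-74322859, minus strand: aaatgagcaatcTTTTATttccaaataaaa
*Sdhc* 3′UTR, 1 of its 4 sites, chr1:171129151-171129180, minus strand: aagtactactcaTTTTATgcttgactcttt
*Sdhd* 3′UTR, chr9:50596357-50596386, minus strand: ctctgaaaaaacaaaatTTTTAAATaaaat
*Ndufc1* 3′UTR, chr3:51404810-51404839, minus strand: tgtaggcccggcTTTTATtgtcagttaggg
*Ndufc2* 3′UTR, chr7:97407713-97407742, plus strand: atattttctgagTTTTATgggattttctgt
These are matches of letters and not measured binding sites. The coordinates are of GRCm38. Neither *Sdhb* nor the other genes called between genotypes (*Ndufb3*, *Ndufa9*, *Ndufa11*, *Uqcrb*, *Cox8c* and *Atp5c1*) held these letters in the 3′UTR of the transcript used.

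The promoters of the members (250 bases before to 50 after the start, RefSeq, GRCm38) were found for 67 of the 83 genes. The letters GCGCATGC, a core of the binding motif of NRF1, a transcription factor of many respiratory chain genes, stood on either strand in 10 of 67 (14.9%). Of all 17492 protein-coding genes with a promoter, 3.94% held them. AAGATGGC, a core of the YY1 motif, stood on either strand in 10 of 67 (14.9%) against 3.57%, and CCGGAAGT, the core bound by ETS factors such as GABP, in 5 of 67 (7.46%) against 5.69%. TATAAA stood on the gene's strand in 2 of 67 (2.99%) against 9.82%, and GGGCGGGG, a Sp1 core, on either strand in 13 of 67 (19.4%) against 26.2%. These shares are a description and were not tested. Examples are shown for genes whose levels are described below, on the gene's strand with the matched letters in capitals, which overlap their own reverse complement in the NRF1 matches of *Ndufa11* and *Cox6a1*.
*Ndufa11* promoter, NRF1 letters, chr17:56717691-56717720, plus strand: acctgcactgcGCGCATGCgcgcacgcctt
*Cox6a1* promoter, NRF1 letters, chr5:115349102-115349131, minus strand: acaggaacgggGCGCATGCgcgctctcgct
*Sdhb* promoter, NRF1 letters in reverse, chr4:140961206-140961235, plus strand: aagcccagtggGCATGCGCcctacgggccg
*Ndufa9* promoter, YY1 letters, chr6:126849097-126849126, minus strand: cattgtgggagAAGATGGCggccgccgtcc
*Ndufc1* promoter, YY1 letters, chr3:51408915-51408944, minus strand: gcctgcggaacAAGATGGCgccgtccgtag
*Cox8a* promoter, ETS letters in reverse, chr19:7217604-7217633, minus strand: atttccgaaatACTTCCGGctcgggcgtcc
The NRF1 letters of *Ndufa11* began 60 bases and those of *Cox6a1* 162 bases before the start, and the YY1 letters of *Ndufa9* and *Ndufc1* 29 and 22 bases after it.

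The comparison of CPEB3-/- with CPEB3+/- oocytes asks which stored mRNAs differ when *Cpeb3* is targeted during oocyte growth, with the genotype taken from the labels. A few respiratory chain genes did: *Ndufc1* of complex I and *Cox8c* of complex IV were higher in CPEB3-/- and *Ndufb3* of complex I was lower. Of the 72 genes with at least 0.1 FPKM in 5 or more libraries, 2 were called higher and 1 lower (adjusted p under 0.05 and more than 1.5-fold), where 5.59% of all 10515 genes tested were called higher and 7.29% lower. When libraries were scaled to their column sum, 9 were called higher and 0 lower, beside 1111 and 478 of all genes. The median log2 difference of the 72 was 0.14, with 48 above 0, beside a median of 0.01 over all genes, and it was 0.03 once GC content and length were corrected. By complex the median was 0.12 for complex I, -0.20 for II, 0.19 for III, 0.28 for IV and 0.06 for V, and with that correction they were 0.03, -0.21, 0.05, 0.15 and -0.00.

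*Ndufb3* (ENSMUSG00000026032.8, chr1:58586384-58595964, plus strand) encodes an accessory subunit of the membrane arm of complex I. Its levels were 0.955, 0.994, 1.0, 1.03 and 1.04 FPKM in CPEB3+/- and 0.496, 0.544, 0.616, 0.844 and 0.910 FPKM in CPEB3-/- oocytes. The CPEB3+/- libraries lay close together and all above the CPEB3-/- ones, and the gene fell by 0.62 ± 0.15 on the log2 scale (SE, adjusted p = 0.0153). It stayed called in 7 of 10 fits without 1 library, and without CPEB3+/- library C or CPEB3-/- library B or E it was not (log2 differences of -0.70 to -0.53 and adjusted p of at most 0.0422 over the 10 fits, so that each was lost on the fold limit). Nor was it called with values as deposited, scaled to the column sum, with GC content or GC content and length corrected, or with a pseudocount of 1 (log2 differences of -0.65 to -0.31 over 8 other settings). In embryos it was at 2.18 to 2.96 FPKM in CPEB3+/- and 1.63 to 2.15 FPKM in CPEB3-/-, again without overlap, with a log2 difference of -0.42 ± 0.14 (adjusted p = 0.0625).

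*Ndufc1* (ENSMUSG00000037152.11, chr3:51404677-51408988, minus strand), another accessory subunit of the membrane arm, was at 0.169, 0.268, 0.322, 0.378 and 0.437 FPKM in CPEB3+/- and 0.419, 0.561, 0.647, 0.671 and 1.25 FPKM in CPEB3-/- oocytes. Only the lowest CPEB3-/- library reached into the CPEB3+/- range, and the highest stood well above the rest. The log2 difference was 0.85 ± 0.24 (adjusted p = 0.0334), and it was called in 4 of 10 fits without 1 library. Without CPEB3+/- library C, D or E or CPEB3-/- library A, B or C it was not, with log2 differences of 0.66 to 0.98 and adjusted p of up to 0.0744 over the 10 fits. Nor was it called with a pseudocount of 1 or with no filter on low values.

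The testis form *Cox8c* (ENSMUSG00000043319.5, chr12:102899316-102900526, plus strand) was at 0.0698, 0.0803, 0.0844, 0.202 and 0.237 FPKM in CPEB3+/- and 0.217, 0.293, 0.349, 0.377 and 0.393 FPKM in CPEB3-/- oocytes, with only the lowest CPEB3-/- library within the CPEB3+/- range and a log2 difference of 0.84 ± 0.23 (adjusted p = 0.0268). These levels amount to about 0.747 to 3.79 fragments in a library, so that the call rests on very few fragments, and it held in 4 of 10 fits without 1 library. It was lost without library C, D or E of either genotype, with log2 differences of 0.76 to 0.97 and adjusted p of up to 0.0693 over the 10 fits, and also with a pseudocount of 1, no filter, the replicate block or all 19 libraries in 1 fit.

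After scaling, the genotypes did not overlap for 1 of the 72 genes on the higher side and 2 on the lower side, beside 7.75% and 8.93% of all genes. The higher gene was *Ndufb6*, an accessory subunit of complex I, with 4.05, 4.79, 5.01, 5.18 and 5.76 FPKM in CPEB3+/- and 5.73, 7.40, 7.77, 8.38 and 8.94 FPKM in CPEB3-/- (log2 difference 0.51 ± 0.11, adjusted p = 0.0127, under 1.5-fold). The lower genes were *Ndufb3* and *Ndufs3*, a core subunit of the arm that reaches into the matrix. For *Ndufs3* the log2 difference was -0.44 ± 0.14 (adjusted p = 0.0461, under 1.5-fold), and a pseudogene with 98.6% identity to its transcript was listed at a higher mean level (up to 4.70 FPKM) than the gene, so reads of the pair may not have been told apart. *Ndufb6* and *Ndufs3* were named after their values were seen.

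For all 4 complex II subunits the levels in CPEB3-/- oocytes overlapped the CPEB3+/- range, though most CPEB3-/- libraries of *Sdha* lay below it. *Sdha*, the flavoprotein that oxidizes succinate, was at 3.08, 3.18, 3.25, 3.25 and 3.64 FPKM in CPEB3+/- and 2.34, 2.66, 2.80, 3.04 and 3.70 FPKM in CPEB3-/- (log2 difference -0.28 ± 0.13, adjusted p = 0.155). The log2 differences of the iron-sulfur subunit *Sdhb* and of the membrane anchors *Sdhc* and *Sdhd* were 0.13 ± 0.15, -0.24 ± 0.14 and -0.16 ± 0.16. Of the 4 subunits 0 were called by limma and 0 had an unadjusted p under 0.05. Over all 72 genes the log2 differences lay between -0.62 and 0.85, and 23 genes (31.9%) had an unadjusted p under 0.05, beside 37.1% of all genes tested.

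In 2cell embryos the question is which mRNAs differ once maternal mRNAs are being cleared and the embryo's genome is active. The genes called lower in CPEB3-/- were *Ndufa11* and *Ndufa9* of complex I, *Sdhb* of complex II, *Uqcrb* of complex III and *Atp5c1* of complex V, while *Sdha* of complex II was higher. Of the 74 genes tested, 1 was called higher and 5 lower, beside 8.41% and 9.85% of all 14051 genes tested, so the share called among the members lay below the background in both directions. With GC content corrected it lay above it on the lower side, with 1 higher and 12 lower beside 723 and 1101 of 13924 genes, and with length corrected too it was 0 and 8 beside 600 and 1107. The split also turned with the scaling: scaled to the column sum, 6 were called higher and 0 lower, beside 2423 and 573 of all genes, and oocytes then had more calls (9) than embryos. The median log2 difference of the 74 was -0.24, with 53 below 0, beside -0.01 over all genes, and when libraries were scaled to their column sum it became 0.07 beside 0.26 over all genes.

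By complex the medians were -0.37 for complex I, 0.04 for II, -0.40 for III, -0.15 for IV and -0.20 for V, and when scaled to the column sum they were -0.02, 0.30, -0.07, 0.15 and 0.13, where the median of all genes moved to 0.26. After scaling by trimmed means, the genotypes did not overlap for 2 of the 74 genes on the higher side and 7 on the lower side, beside 9.28% and 11.4% of all genes.

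*Ndufa11* (ENSMUSG00000002379.7, chr17:56717767-56722141, plus strand), an accessory subunit in the membrane arm of complex I, was at 12.8, 14.2, 14.6, 16.6 and 17.1 FPKM in CPEB3+/- and 6.89, 7.89, 8.45 and 9.47 FPKM in CPEB3-/- embryos. The genotypes lay far apart. *Ndufa11* fell by 0.93 ± 0.13 on the log2 scale (SE, adjusted p = 0.00253, limma), a 1.91-fold difference, and the call held in each of the 9 fits that left out 1 library. When scaled to the column sum the log2 difference was -0.58, under 1.5-fold. A processed pseudogene with 94.8% identity over part of its transcript was listed at no more than 0.495 FPKM in any group mean.

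*Ndufa9* (ENSMUSG00000000399.10, chr6:126821721-126849136, minus strand), which sits near the junction of the 2 arms of complex I, was at 1.13, 1.16, 1.21, 1.33 and 1.36 FPKM in CPEB3+/- and 0.530, 0.708, 0.751 and 0.791 FPKM in CPEB3-/- embryos, without overlap. It fell by 0.81 ± 0.16 (adjusted p = 0.00754) and its call held in each of the 9 fits that left out 1 library. It was lost when scaled to the column sum, with a pseudocount of 1 and with the replicate block, with adjusted p of up to 0.0739 over 9 other settings. In oocytes *Ndufa9* stayed at 0.0379 to 0.156 FPKM in both genotypes and was not tested there.

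The complex II subunits moved apart in embryos. *Sdha* (ENSMUSG00000021577.14, chr13:74322254-74350280, minus strand) was at 0.318, 0.382, 0.382, 0.453 and 0.519 FPKM in CPEB3+/- and 0.558, 0.672, 1.08 and 1.18 FPKM in CPEB3-/-, so that every CPEB3-/- library was above the CPEB3+/- ones. The log2 difference was 0.84 ± 0.23 (adjusted p = 0.0319), called in 3 of 9 fits without 1 library. Without CPEB3+/- library A, B, D or E or CPEB3-/- library A or B it was not, with log2 differences of 0.67 to 1.02 and adjusted p of up to 0.0833 over the 9 fits. Nor was it called with GC content and length corrected, a pseudocount of 1, no filter or the replicate block.

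*Sdhb* (ENSMUSG00000009863.14, chr4:140961203-140979193, plus strand) was at 0.331, 0.357, 0.368, 0.386 and 0.412 FPKM in CPEB3+/- and 0.141, 0.147, 0.204 and 0.356 FPKM in CPEB3-/-, so that 1 CPEB3-/- library lay within the CPEB3+/- range. It fell by 0.68 ± 0.21 (adjusted p = 0.0479) and was called in 1 of 9 fits without 1 library, the fit without CPEB3-/- library C, with log2 differences of -0.88 to -0.57 and adjusted p of up to 0.128 over the 9 fits. It was also lost as deposited, scaled to the column sum, with a pseudocount of 1, with no filter and with the replicate block. *Sdhc* was at 0.119 to 0.159 FPKM in CPEB3+/- and 0.101 to 0.278 FPKM in CPEB3-/-, and *Sdhd* at 0.420 to 0.788 FPKM and 0.236 to 0.877 FPKM, and neither was called.

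*Uqcrb* (ENSMUSG00000021520.4, chr13:66900617-66905378, minus strand), a small subunit of complex III near its ubiquinone site, was at 1.33, 1.60, 1.77, 1.78 and 2.05 FPKM in CPEB3+/- and 0.717, 0.903, 0.961 and 1.29 FPKM in CPEB3-/- embryos, again without overlap. It fell by 0.83 ± 0.17 (adjusted p = 0.0102) and its call held in each of the 9 fits that left out 1 library. It was lost in 5 of 9 other settings, namely scaled to the column sum, with GC content or GC content and length corrected, with a pseudocount of 1 and with the replicate block, with log2 differences of -0.86 to -0.48 and adjusted p of up to 0.0951 over the 9. It has 4 processed pseudogenes with up to 98.2% identity, of which 3 are listed and reach 1.78 FPKM in a group mean, so its level may hold reads of these copies.

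*Atp5c1* (ENSMUSG00000025781.14, chr2:10056016-10080510, minus strand), the rotating gamma subunit of ATP synthase, was at 1.13, 1.33, 1.44, 1.72 and 1.82 FPKM in CPEB3+/- and 0.721, 0.798, 0.80 and 1.16 FPKM in CPEB3-/- embryos. As deposited the ranges touched at 1 library each, and after scaling they did not. It fell by 0.76 ± 0.19 (adjusted p = 0.0207), called in 4 of 9 fits without 1 library. Without CPEB3+/- library D or E or CPEB3-/- library A, C or D it was not, with log2 differences of -0.91 to -0.67 and adjusted p of up to 0.0643 over the 9 fits. The call was also lost when scaled to the column sum, with a pseudocount of 1 and with the replicate block.

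The other genes whose scaled values did not overlap were *Cox8a* on the higher side and *Atp5f1*, *Cox6a1* and *Ndufb3* on the lower side, chosen after their values were seen. *Cox6a1*, the widely expressed form of a complex IV subunit, was at 22.6, 23.5, 24.2, 25.5 and 26.6 FPKM in CPEB3+/- and 14.5, 17.3, 17.5 and 21.9 FPKM in CPEB3-/- embryos, with a log2 difference of -0.53 ± 0.12 (adjusted p = 0.0167), a 1.44-fold difference under the limit for a call. In complex IV 0 of the 16 genes tested were called by limma, and 5 had an unadjusted p under 0.05 (3 were called lower with GC content corrected, 2 lower with length corrected too, and 2 higher scaled to the column sum).

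**Figure D3:**
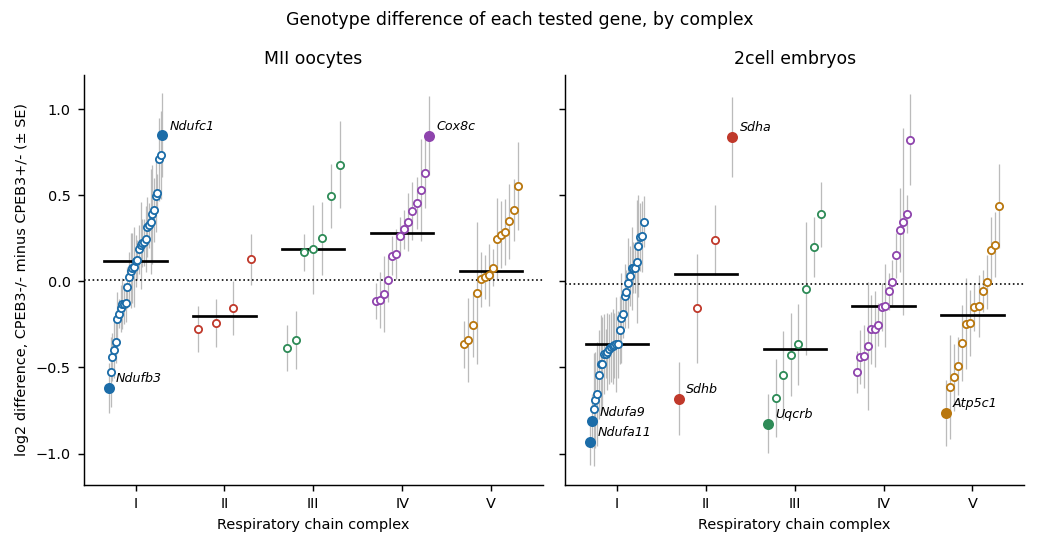
Log2 difference CPEB3-/- minus CPEB3+/- (vertical axis, bars ± SE) of each tested gene by complex, in MII oocytes (left, 72 genes) and 2cell embryos (right, 74 genes), with filled points for called genes, a black line for the median of each complex and a dotted line for the median of all genes tested. The median of complex I is 0.12 in oocytes and -0.37 in embryos.

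**Figure D4:**
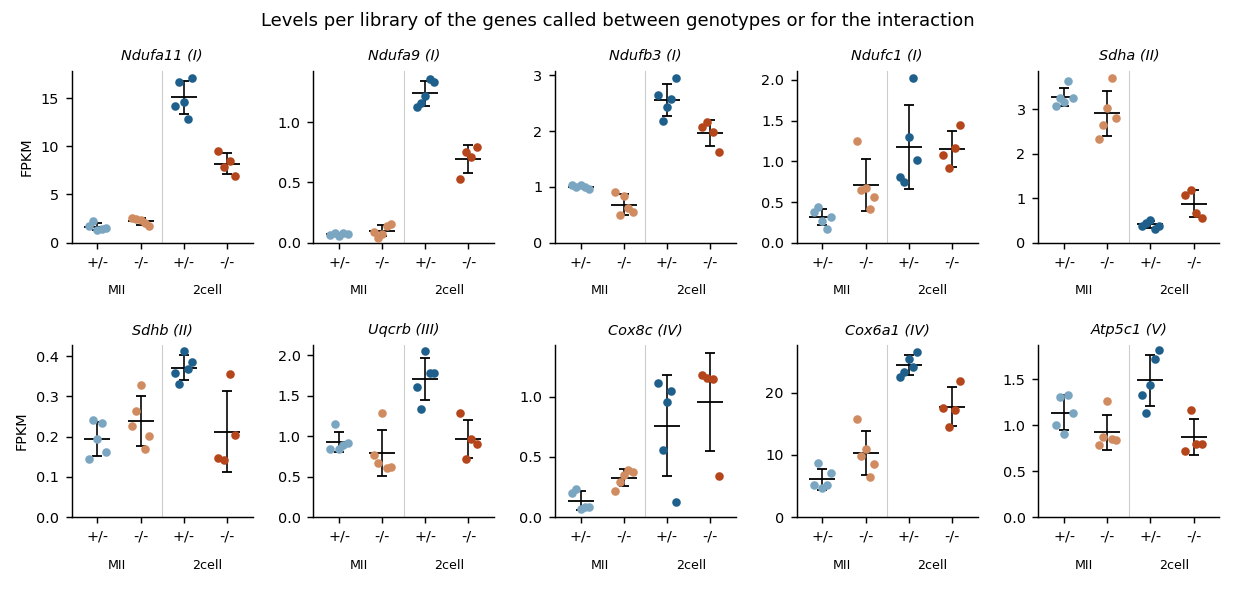
FPKM in each library of the genes called between genotypes or in the test of both factors, 1 panel per gene, with points for libraries, bars for group means and error bars for the SD (n = 5, 5, 5 and 4). For *Ndufa11* the CPEB3-/- embryos (6.89 to 9.47 FPKM) lie below the CPEB3+/- embryos (12.8 to 17.1 FPKM) and above all oocyte libraries.

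Between the stages the differences were far larger. A level is relative to the other RNAs of its library, so less RNA of 1 gene per cell and more of the rest cannot be told apart. Stored mRNAs of the chain that were lower in 2cell embryos than in oocytes included those of 3 of the 4 complex II subunits, while 14 of 16 genes of complex IV were called higher in CPEB3+/- and 12 in CPEB3-/- (11 and 7 scaled to the column sum, 9 and 6 with GC content and length corrected). Of the 77 genes tested over all libraries, 41 were called higher and 15 lower in CPEB3+/- embryos than in CPEB3+/- oocytes, beside 38.0% and 28.5% of all 15786 genes tested. In CPEB3-/-, 33 were called higher and 16 lower, beside 38.2% and 27.0%. The balance depended on the processing. Scaled to the column sum, 31 were higher and 22 lower in CPEB3+/- and 23 and 29 in CPEB3-/-, beside 4976 and 5931 and 5315 and 5572 of all genes, whose balance turned as well. With GC content and length corrected, 32 were higher and 19 lower in CPEB3+/- and 23 and 26 in CPEB3-/-, beside 6151 and 4042 and 6170 and 3893 of all genes.

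The calls of both genotypes shared 33 genes on the higher side and 14 on the lower side and had 0 in opposite directions, while 8 were called higher and 1 lower in CPEB3+/- alone and 2 lower in CPEB3-/- alone. Over all genes 5130 and 3708 were shared, 17 opposite, 866 and 788 called in CPEB3+/- alone and 887 and 540 in CPEB3-/- alone. Of the 11 members called in 1 genotype alone, 0 were called in the interaction by limma, so a difference between the genotypes was not shown for them. Of the 77 genes, 69 passed the level filter in both stages, and among these 36 were higher and 13 lower in CPEB3+/- and 28 and 13 in CPEB3-/-. Of all 9637 genes that passed in both stages, 25.1% were higher and 36.8% lower in CPEB3+/- and 24.9% and 34.7% in CPEB3-/-. *Cox4i2*, *Cox7a1*, *Ndufa7*, *Ndufa9* and *Uqcrc1* passed only in embryos and *Ndufb4*, *Ndufs1* and *Ndufs4* only in oocytes, so the direction of these 8 follows from the filter. The other 6 genes (*Atp5g2*, *Atp5o*, *Atp5s*, *Cox7b2*, *Ndufa12* and *Ndufa4l2*) were too low to be tested, and the entry of *Atp5o* spans 2 annotated loci.

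The counts by complex follow. In CPEB3+/-, 15 of 35 genes of complex I were higher and 10 lower, 0 of 4 and 3 of complex II, 6 of 8 and 1 of complex III, 14 of 16 and 1 of complex IV, and 6 of 14 and 0 of complex V. In CPEB3-/- these were 13 and 10, 0 and 3, 4 and 1, 12 and 2, and 4 and 0. Among the genes that passed the level filter in both stages, 13 of 30 of complex I were higher and 8 lower in CPEB3+/-, 5 of 7 and 1 of complex III and 12 of 14 and 1 of complex IV, and in CPEB3-/- 11 and 7, 3 and 1, and 10 and 2, while complexes II and V lost no gene. With GC content and length corrected, 3 of the 8 genes of complex III were higher in CPEB3+/- and 2 in CPEB3-/-. The median log2 differences were 0.27, -1.56, 0.95, 1.26 and 0.30, beside 0.20 over all genes. In CPEB3-/- they were -0.24, -1.28, 0.58, 0.97 and 0.24, beside 0.21. Scaled to the column sum, the medians of complexes I and V in CPEB3+/- were -0.11 and -0.19, where that of all genes had moved to -0.17, and that of V in CPEB3-/- was -0.16 beside -0.07. With GC content and length corrected, the medians of complexes I to V were 0.06, -1.47, 0.36, 0.78 and -0.11 in CPEB3+/-, beside 0.28 over all genes, and -0.44, -1.16, 0.19, 0.40 and -0.20 in CPEB3-/-, beside 0.30, so that complex III then lay below all genes in CPEB3-/-.

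The largest falls were shared by both genotypes. *Uqcrc2* (ENSMUSG00000030884.12, chr7:120635176-120659524, plus strand), a core protein of complex III, was at 10.6, 10.7, 11.6, 12.5 and 12.6 FPKM in CPEB3+/- oocytes and 0.497, 0.547, 0.555, 0.579 and 0.912 FPKM in CPEB3+/- embryos. In CPEB3-/- it was at 7.26, 9.78, 9.85, 10.3 and 10.5 FPKM in oocytes and 0.309, 0.383, 0.570 and 0.672 FPKM in embryos. The log2 differences were -4.28 ± 0.18 (adjusted p = 2.97e-13) and -4.21 ± 0.20 (adjusted p = 1.06e-12), while its partner *Uqcrc1*, the other core protein, was at a mean of only 0.135 FPKM over all libraries.

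*Ndufa10* (ENSMUSG00000026260.12, chr1:92439010-92473860, minus strand), an accessory subunit of complex I, went from 4.33, 4.44, 4.50, 4.78 and 5.41 FPKM in CPEB3+/- oocytes to 0.243, 0.263, 0.324, 0.346 and 0.405 FPKM in CPEB3+/- embryos (log2 difference -3.75 ± 0.15), and by -3.32 ± 0.16 in CPEB3-/-. *Ndufc2*, the neighbour of *Ndufc1* in the membrane arm, was at 3.41 ± 0.53 FPKM in CPEB3+/- oocytes and 0.414 ± 0.092 FPKM in CPEB3+/- embryos (-3.0 ± 0.20, and -3.38 ± 0.21 in CPEB3-/-), although *Ndufc1* itself was higher in CPEB3+/- embryos (1.38 ± 0.26) and not called in CPEB3-/- (0.55 ± 0.27, adjusted p = 0.0808). *Cox7a2l*, whose share is given above, had log2 differences of -2.67 ± 0.16 and -2.91 ± 0.17.

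Within complex II the catalytic flavoprotein and the 2 membrane anchors fell, and the iron-sulfur subunit was not called. With other processing it was called higher in CPEB3+/- with values as deposited and lower in CPEB3-/- with GC content and length corrected. *Sdhc* (chr1:171127165-171150603, minus strand) was at 0.486, 0.50, 0.548, 0.548 and 0.617 FPKM in CPEB3+/- oocytes and 0.119, 0.128, 0.146, 0.146 and 0.159 FPKM in CPEB3+/- embryos, with log2 differences of -1.60 ± 0.15 in CPEB3+/- and -1.08 ± 0.16 in CPEB3-/-. *Sdhd* (chr9:50596357-50603812, minus strand) was at 1.25, 1.60, 1.61, 1.70 and 2.08 FPKM and 0.420, 0.551, 0.601, 0.726 and 0.788 FPKM, with log2 differences of -1.52 ± 0.24 and -1.47 ± 0.25. *Sdhb* had 0.52 ± 0.16 in CPEB3+/-, under 1.5-fold, and -0.25 ± 0.17 in CPEB3-/-. The 3 subunits that fell are those whose 3′UTR held U-rich letters, and 4 genes are too few to compare.

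The largest rises, setting aside *Cox7a1*, were those of *Atp5g1*, *Cox7b*, *Ndufs8* and *Ndufa2*. *Atp5g1* (ENSMUSG00000006057.15, chr11:96068852-96075670, minus strand) was at 0.495, 0.636, 0.717, 0.740 and 0.835 FPKM in CPEB3+/- oocytes and 13.0, 14.1, 14.2, 14.8 and 17.1 FPKM in CPEB3+/- embryos. In CPEB3-/- it was at 0.540 to 1.67 FPKM in oocytes and 11.1 to 16.6 FPKM in embryos. The log2 differences were 4.02 ± 0.20 (adjusted p = 2.08e-12) and 3.66 ± 0.21 (adjusted p = 2.18e-11).

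*Cox7b*, a small subunit of complex IV on the X chromosome, was at 0.609 to 1.02 FPKM in CPEB3+/- oocytes and 8.89 to 13.9 FPKM in CPEB3+/- embryos (log2 difference 3.53 ± 0.16, and 3.25 ± 0.17 in CPEB3-/-). *Ndufs8*, a core subunit that carries iron-sulfur clusters in complex I, went from 0.514 ± 0.19 to 8.59 ± 1.48 FPKM in CPEB3+/- (3.64 ± 0.25, and 2.92 ± 0.27 in CPEB3-/-). *Ndufa2*, an accessory subunit and the complex I gene with the highest mean level over all libraries, went from 2.80 ± 0.35 to 36.3 ± 5.45 FPKM (3.41 ± 0.15, and 3.39 ± 0.16 in CPEB3-/-). In all 3 genes no oocyte library of either genotype reached the lowest embryo library.

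Other genes with high levels rose less or did not rise. *Uqcrq* had the highest mean of complex III over all libraries, though in oocytes of both genotypes *Uqcrc2* was higher on average. Its log2 differences were 2.1 ± 0.24 and 1.86 ± 0.25, and those of *Uqcr10* of the same complex 1.13 ± 0.23 and 0.50 ± 0.25, the second not called. *Atp5b*, the catalytic beta subunit and the most abundant of complex V, was at 31.5 ± 4.35 FPKM in CPEB3+/- oocytes and 26.1 ± 3.25 FPKM in CPEB3+/- embryos, with log2 differences of -0.51 ± 0.17 and -0.22 ± 0.18, both under 1.5-fold. *Ndufa4* had 1.01 ± 0.24 in CPEB3+/- and 0.35 ± 0.25 in CPEB3-/-, the second not called.

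**Figure D5:**
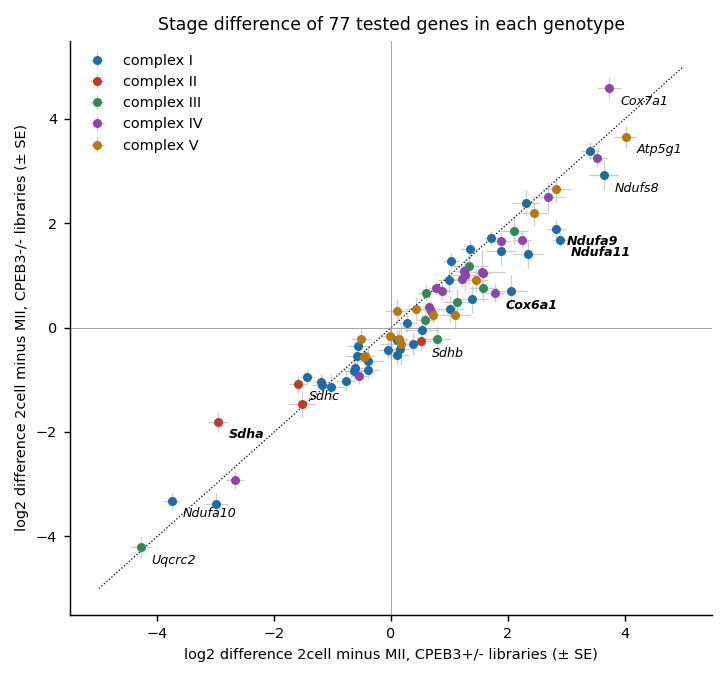
Log2 difference 2cell minus MII of the 77 tested genes in CPEB3+/- (horizontal axis) and CPEB3-/- libraries (vertical axis), each ± SE, coloured by complex, with a dotted line of equal difference and bold names for the 4 genes called in the test of both factors. *Sdha* lies above the line (-2.96 and -1.81), and *Ndufa11*, *Ndufa9* and *Cox6a1* below it.

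Whether the stage difference itself depended on genotype was tested as an interaction in all 19 libraries. Of the 77 genes, 1 was called higher (*Sdha*) and 3 lower (*Ndufa11*, *Ndufa9* and *Cox6a1*), beside 3.71% and 3.93% of all genes. Of these *Ndufa9* passed the level filter through its embryo libraries alone. With GC content corrected, 2 genes were called higher and 7 lower, beside 577 and 646 of 15642 genes. The median over the 77 was -0.24, with 60 below 0, beside 0.04 over all genes, and this median uses the same libraries as the comparisons above.

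*Sdha* fell from oocytes to embryos by 2.96 ± 0.18 on the log2 scale in CPEB3+/- and by 1.81 ± 0.19 in CPEB3-/-, so that the fall was smaller in CPEB3-/- by 1.15 ± 0.26 (adjusted p = 0.0106). *Ndufa11* rose by 2.90 ± 0.12 in CPEB3+/- and 1.69 ± 0.13 in CPEB3-/-, a difference of -1.21 ± 0.18 (adjusted p = 0.000648). In oocytes it had been at 1.29 to 2.21 FPKM in CPEB3+/- and 1.70 to 2.55 FPKM in CPEB3-/-, close to each other against the embryo levels.

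*Ndufa9* rose by 2.83 ± 0.16 in CPEB3+/- and by 1.89 ± 0.17 in CPEB3-/-, a difference of -0.93 ± 0.23 (adjusted p = 0.0180). It passed the level filter only in embryos, with oocyte levels of at most 0.156 FPKM, so this value adds little to the embryo difference of -0.81 given above, and it was not called with a pseudocount of 1 or scaled to the column sum. *Cox6a1* (ENSMUSG00000041697.8, chr5:115345642-115348981, minus strand) rose by 1.78 ± 0.17 and by 0.67 ± 0.18, the latter turning below 0 with GC content and length corrected, a difference of -1.11 ± 0.25 (adjusted p = 0.0115). The order of the genotypes turned between the stages. In oocytes *Cox6a1* was at 4.61, 5.10, 5.12, 7.02 and 8.68 FPKM in CPEB3+/- and 6.50, 8.57, 9.77, 10.9 and 15.8 FPKM in CPEB3-/-, higher on average in CPEB3-/-, where embryos were lower, and the oocyte difference was not called (log2 0.63 ± 0.21, adjusted p = 0.0525). All 4 calls held in each of 19 fits without 1 library.

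The partners of these genes were read from lists of the same pathway. The 13 subunits encoded in mitochondrial DNA summed to 5641 to 7031 FPKM in CPEB3+/- and 2521 to 4414 FPKM in CPEB3-/- oocytes, and to 24093 to 38574 FPKM and 12577 to 20062 FPKM in embryos. In both stages 10 of the 13 were called lower in CPEB3-/- and 0 higher, with median log2 differences of -1.05 in oocytes and -1.33 in embryos, and 6 to 9 stayed called lower in each stage with other scalings or with GC content and length corrected. The medians were -0.59 and -0.73 with GC content corrected and -0.63 and -0.64 with length corrected too. *mt-Cytb*, the mitochondrially encoded core of complex III, was at 1439 ± 155 FPKM in the oocytes of CPEB3+/- and 542 ± 91.5 FPKM in those of CPEB3-/- mice (log2 difference -1.52 ± 0.15, adjusted p = 0.000205). All 13 were called higher in embryos than in oocytes in each genotype. In the interaction 0 of the 13 were called by limma and 5 had an unadjusted p under 0.05 (2 were called higher when scaled to the column sum or with GC content corrected). The nuclear-encoded members above had medians of 0.14 and -0.24 in the same libraries (0.03 and -0.23 with GC content and length corrected).

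A set of 6 further nuclear genes of the chain falls outside the name rule. Of these *Cycs*, somatic cytochrome c, the carrier between complexes III and IV, was lower in CPEB3-/- in both stages, with 13.9 ± 0.83 against 9.08 ± 0.91 FPKM in oocytes (log2 difference -0.71 ± 0.083, adjusted p = 0.000540) and 25.6 ± 5.03 against 16.5 ± 1.9 FPKM in embryos (-0.67 ± 0.17, adjusted p = 0.0237). In embryos *Ndufab1*, the mitochondrial acyl carrier protein in complex I, and *Cyc1*, the cytochrome c1 of complex III, were also lower (-0.85 ± 0.20 and -0.75 ± 0.17), and *Cyct*, the testis cytochrome c, was higher from a low level (0.0569 ± 0.032 to 0.303 ± 0.13 FPKM). When scaled to the column sum the calls of *Cycs* in both stages and of *Ndufab1* and *Cyc1* were lost, and those of *Cycs* also with GC content corrected, with or without length (log2 differences of -0.53 to -0.32 for *Cycs* in these fits). In the stage comparison 4 of the 6 were higher and 2 lower in CPEB3+/- and 4 and 1 in CPEB3-/-, too few to set against the 38.0% and 28.5% and the 38.2% and 27.0% of all genes. In the interaction *Cyct* was called higher and *Atpif1*, the inhibitor of ATP synthase, lower, the latter not when scaled to the column sum.

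Of 47 assembly factors, which build the complexes without staying in them, 46 were listed and 30 tested in oocytes. There *Cox10* and *Sco1* were called higher and 0 lower in CPEB3-/-, too few to set against the 5.59% and 7.29% of all genes. Of 37 tested in embryos, *Cox10* was higher and *Uqcc3* and *Tmem70* were lower, beside 8.41% and 9.85% of all genes. Scaled to the column sum both lower calls were lost and 6 were higher, beside 2423 higher and 573 lower of all 14051 genes. *Cox10*, which takes a step on the way to the heme A of complex IV, was at 1.9 ± 0.39 against 3.09 ± 0.31 FPKM in oocytes and 0.485 ± 0.093 against 1.15 ± 0.13 FPKM in embryos (log2 differences 0.59 ± 0.11 and 1.06 ± 0.18). Its oocyte call was lost on the fold limit with GC content corrected. Between the stages 15 of 43 were higher and 14 lower in each genotype, near the 38.0% and 28.5% and the 38.2% and 27.0% of all genes. Fewer than these 43 were tested in oocytes (30) and in embryos (37). The direction of some may therefore follow from the filter, and these were not set apart. In the interaction 0 of the 43 were called by limma, with an unadjusted p under 0.05 in 5.

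Of 11 regulators of respiratory chain transcription, 5 were tested in oocytes and 0 called by limma, with an unadjusted p under 0.05 in 3, and 8 were tested in embryos, where *Gabpa* and *Gabpb1*, the DNA-binding and activating subunits of the ETS factor GABP, were lower in CPEB3-/-. *Gabpa* was at 9.29 ± 2.15 FPKM in CPEB3+/- embryos against 2.89 ± 0.48 FPKM in CPEB3-/- embryos (log2 difference -1.69 ± 0.18, adjusted p = 0.00107), and at 0.0124 ± 0.0022 and 0.0115 ± 0.0078 FPKM in oocytes. *Gabpb1* was at 1.09 ± 0.22 and 0.504 ± 0.059 FPKM in embryos (-1.01 ± 0.17, adjusted p = 0.00481). *Nrf1* had a log2 difference of 0.47 ± 0.17 in embryos (adjusted p = 0.0737). Between the stages 5 of 8 regulators were higher in CPEB3+/- and 6 in CPEB3-/-, too few to set against the 38.0% and 38.2% of all genes. Only 5 of the 8 were tested in oocytes, so the direction of the rest may follow from the filter. *Gabpa* was the only one of the 8 called in the interaction by limma (-1.64 ± 0.20, adjusted p = 0.000139). With its oocyte levels far under the filter of 0.1 FPKM, *Gabpa* was tested through the embryos alone, so its stage direction follows from the filter and its interaction restates the embryo difference.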

How the data were processed

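RNA of MII oocytes and 2cell embryos was sequenced in 19 libraries, grouped by their labels. Reads were trimmed (Trim Galore 0.4.1) and aligned to GRCm38 (HISAT2 2.0.5) by the authors, whose FPKM values were made in SeqMonk. The labels and methods differ in the sequencer named, and the methods give quadruplicates where the labels list 5, 5, 5 and 4 libraries. The table is named as raw counts, but its values are not whole numbers, so no count test was run.

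Genes that reached 0.1 FPKM in 5 libraries of MII oocytes or 4 of embryos (4 of 19 for stage and interaction) were tested on log2(FPKM + 0.1), scaled by trimmed means of log ratios (30% of ratios and 5% of levels trimmed), with limma 3.58.1 in R 4.3.3 (variance trend, group means, Benjamini-Hochberg adjustment over all genes tested). A fold change on this scale understates that of low genes. Called means adjusted p under 0.05 and more than 1.5-fold. The fits were tested on simulated data. Shares and sums are computed from the deposited FPKM, whose depth sets their precision, and a fold printed beside a log2 difference is 2 to the power of the fitted log2 difference, and no column was left unused (0 of the table).

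The members and lists were chosen with earlier results of these data known. Named genes were those called between genotypes, the 2 of each complex with the highest level, the 4 of complex II, the 5 largest rises and falls of each stage comparison, listed isoforms, and members failing the filter. Alternatives were other scalings, pseudocounts, filters, GC and length corrections (loess span 0.5), a replicate block, unadjusted p, no fold limit, other sample sets and each library left out.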

Additional observations from a re-analysis of the deposited data

Results flagged for a closer look

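The interaction of stage and genotype was called by limma in 4 genes: *Sdha* (1.15 on the log2 scale), *Ndufa11* (-1.21), *Cox6a1* (-1.11) and *Ndufa9* (-0.93). *Ndufa9* passed the level filter in embryos only, and its interaction was not called with a pseudocount of 1 or when scaled to the column sum.

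A single library stood apart from the rest of its group by Dixon's test in 19 of 174 groups over the 44 genes examined, where chance gives about 1 in 20. Among the genes tested between genotypes, *Atp5b* was at 20.4 FPKM in CPEB3-/- 2cell library D (the others at 29.5 to 29.6), *Ndufa10* at 5.98 in CPEB3-/- MII library B (3.92 to 4.41), *Uqcrc2* at 7.26 in CPEB3-/- MII library A (9.78 to 10.5) and, in embryos, at 0.912 in CPEB3+/- library E (0.497 to 0.579). *Atp5c1* was at 1.26 FPKM in CPEB3-/- MII library C (0.787 to 0.873), and *Uqcrb* at 1.28 in the same library (0.60 to 0.764) and at 1.15 in CPEB3+/- MII library B. *Ndufs8* was at 0.837 FPKM in CPEB3+/- MII library E (0.366 to 0.497), and *Cox8c* at 0.342 in CPEB3-/- 2cell library D (1.15 to 1.18).

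The other libraries that stood apart concerned genes near 0. *Atp5g2* was at 0.0403 FPKM in CPEB3+/- and 0.0392 in CPEB3-/- MII library B, *Atp5o* at 0.132 in CPEB3+/- 2cell library E, and *Uqcrc1* at 0.121 in CPEB3+/- MII library B. *Cox7a1* was at 0.0218 FPKM in CPEB3+/- MII library C and 0.0226 in CPEB3-/- MII library A, with 0 in the others. *Ndufa12* was at 0.131 FPKM in CPEB3-/- MII library A and 0.0463 in CPEB3-/- 2cell library D, and *Ndufa4l2* at 0.0218 in CPEB3+/- MII library B and 0.040 in CPEB3-/- MII library A.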

How the results depend on the processing

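Between genotypes, 0 of the 9 calls made by limma held under every alternative scaling, pseudocount, filter and correction, *Ndufa11* coming nearest with 8 of 9. In oocytes 3 members were called, beside 1355 of all genes. The count was 7 by unadjusted p (1805 of all genes), 5 without a fold limit (2247) and 9 (all higher) when scaled to the column sum (1589). It was 0 with a pseudocount of 1 (481), 1 without a filter (1032 of 23046 genes) and 1 with at least 1 FPKM (774 of 4435 genes). Leaving out 1 library gave 0 (without CPEB3+/- library C) to 7 (without CPEB3-/- library D), with 1 without CPEB3+/- D, CPEB3-/- B or CPEB3-/- E, 2 without CPEB3+/- E or CPEB3-/- C and 5 without CPEB3+/- B. In embryos, where 6 were called, it was 10 by unadjusted p (3645 of all genes), 1 with a pseudocount of 1 (1178) and 13 (12 lower) with GC content corrected (1824, 1101 lower), 6 (6 higher, 0 lower) scaled to the column sum, and leaving out 1 library gave 3 (without CPEB3+/- D, CPEB3+/- E or CPEB3-/- A) to 7. Of the interaction, where 4 were called, 14 were by unadjusted p (2878 of all genes). With GC content corrected 2 were higher and 7 lower, beside 577 and 646 of 15642 genes, and with length corrected too 3 and 7, beside 519 and 647. With 1 library left out 4 to 7 were called (7 without CPEB3-/- D of either stage). The cause was not tested.

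Replicate letters were shared between groups, but same-lettered libraries did not deviate together (correlations of -0.175, 0.0238, -0.0589, 0.12 and -0.150 for letters A to E in oocytes and -0.0688, -0.0401, -0.0688 and 0.0368 for A to D in embryos), so the letters were not taken as pairs. With the letter as a replicate block, 3 members were called in oocytes (824 of all genes), 1 in embryos (*Ndufa11*, beside 414 of all genes), 56 and 48 between stages (10436 and 10193) and 5 in the interaction (827).

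Median differences followed the scaling. In embryos the median between genotypes, -0.24, was 0.071 when scaled to the column sum, -0.13 with a pseudocount of 1 and -0.13 with at least 1 FPKM, and -0.26 to -0.18 with 1 library left out. In oocytes it was 0.08 to 0.20 with 1 library left out, and 0.31 when scaled to the column sum, where the median of all genes was 0.15, 0.065 with GC content corrected, 0.032 with GC content and length corrected and 0.072 with a pseudocount of 1. The stage median in CPEB3+/-, 0.68, was 0.93 as deposited, 0.15 scaled to the column sum (-0.17 over all genes), 0.45 with a pseudocount of 1, 1.05 with at least 1 FPKM and 0.26 with GC content and length corrected, and 0.63 to 0.75 with 1 library left out. That in CPEB3-/-, 0.32, was -0.090 scaled to the column sum (-0.067 over all genes), 0.59 with at least 1 FPKM and -0.13 with GC content and length corrected, and 0.24 to 0.40 with 1 library left out. Stage calls were 53 to 57 in CPEB3+/- (56 with all libraries) and 46 to 50 in CPEB3-/- (49) with 1 library left out. Among the members called between stages, *Cox4i2*, *Cox6a1*, *Cox8a* and *Ndufb7* in CPEB3-/- changed sign with GC content and length corrected, and 0 did in CPEB3+/-. Levels near 0.1 FPKM rest on few fragments, which limits *Cox8c*, *Ndufa9* in oocytes and *Sdhb*.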
